A study of Mus musculus with 2 samples.

Results

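The 8 genes described here, Dgcr2, Slc25a1, Zdhhc8, Ranbp1, Trmt2a, Cdc45, Mrpl40 and Hira, lie on mouse chromosome 16 in the stretch that matches the human 22q11 DiGeorge region. They were picked by symbol, with their values already known, from a table of 44002 rows, so their own differences are given as a description and not as a test. The table compares testis RNA of BALB/c mice at postnatal day 45 in 2 libraries, a BPA library from mice exposed to bisphenol A, a plastics monomer with estrogen-like activity, and a control library with no treatment in its labels. Per the series' design text, 3 samples were mixed for each library, and with a single library per group no spread between samples could be measured. The labels give no dose, route or length of exposure.

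In people, loss of 1 copy of this region causes DiGeorge syndrome, with heart, thymus and palate defects. The region holds unrelated genes packed closely together, among them genes for DNA replication, nuclear transport, histone deposition and mitochondrial function, and mice are widely used to study them because most of the genes kept their neighbourhood on chromosome 16. Several neighbours are transcribed away from each other from start sites a short distance apart.

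Values are given in CPM, reads scaled to a common library total. The libraries had 45162887 (BPA) and 41711330 (control) reads behind the listed values, and values under 1 CPM are written as 0. Intervals in brackets are exact 95% binomial intervals of the reads (Clopper-Pearson), which cover counting error only. A gene was counted as higher or lower when the ratio of CPM + 0.1, BPA over control, reached 2-fold and the higher library had at least 1 CPM. By that rule 635 of 19389 genes, 3.28%, were apart, 1.32% higher and 1.95% lower with BPA. Germ cell, Sertoli, Leydig and macrophage markers, 6 of each list, were all at 1 CPM or more and within 2-fold. Adipocyte markers differed: 4 of 6 were lower, and the list summed to 25.1 CPM in BPA testis and 73.2 CPM in control testis, with none at 0. Of 6 epididymis markers, 5 had no value above 0 in either library (Lcn5, Crisp1, Adam7, Rnase10 and Defb20), 1 of them with no value listed. The other, Cst8, had 175 CPM in BPA testis and 169 CPM in control testis. The part of fat tissue in the differences described here was not tested.

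The start regions of the genes that stood 2-fold or more apart are shown first, because the map position of these genes is what they share. All 8 symbols matched RefSeq start regions on GRCm38.p6, the build that mm10 names, each running from 250 bases before to 50 bases after the start site. Printed 5′ to 3′ along the gene, on the minus strand, they are chr16:17891679-17891978 for Dgcr2, chr16:18248645-18248944 for Ranbp1, chr16:18811923-18812222 for Cdc45 and chr16:18876588-18876887 for Mrpl40. The Ranbp1 window also holds the start site of Trmt2a, 189 bases away by the RefSeq start of that region, and the Mrpl40 window that of Hira, 113 bases away, both on the plus strand. The start site of Ufd1 lies 322 bases from that of Cdc45. Capitals mark matches to any of 6 motifs searched on both strands.
Dgcr2: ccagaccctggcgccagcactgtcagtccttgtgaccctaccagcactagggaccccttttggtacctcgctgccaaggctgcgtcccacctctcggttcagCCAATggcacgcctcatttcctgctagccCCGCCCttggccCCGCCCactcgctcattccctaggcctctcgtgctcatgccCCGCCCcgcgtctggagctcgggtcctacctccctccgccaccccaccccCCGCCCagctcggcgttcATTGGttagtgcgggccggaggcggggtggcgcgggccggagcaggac
Ranbp1: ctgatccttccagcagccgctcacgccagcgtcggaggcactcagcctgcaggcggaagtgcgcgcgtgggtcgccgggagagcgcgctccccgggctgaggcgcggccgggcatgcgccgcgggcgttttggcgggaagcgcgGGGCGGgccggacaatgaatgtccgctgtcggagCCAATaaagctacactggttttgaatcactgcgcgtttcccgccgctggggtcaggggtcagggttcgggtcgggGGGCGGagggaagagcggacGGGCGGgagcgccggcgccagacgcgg
Cdc45: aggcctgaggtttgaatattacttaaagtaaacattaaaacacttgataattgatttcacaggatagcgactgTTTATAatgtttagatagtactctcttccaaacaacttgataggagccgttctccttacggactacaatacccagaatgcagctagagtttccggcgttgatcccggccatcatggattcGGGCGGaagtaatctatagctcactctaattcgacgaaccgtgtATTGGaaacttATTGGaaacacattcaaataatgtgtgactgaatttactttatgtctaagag
Mrpl40: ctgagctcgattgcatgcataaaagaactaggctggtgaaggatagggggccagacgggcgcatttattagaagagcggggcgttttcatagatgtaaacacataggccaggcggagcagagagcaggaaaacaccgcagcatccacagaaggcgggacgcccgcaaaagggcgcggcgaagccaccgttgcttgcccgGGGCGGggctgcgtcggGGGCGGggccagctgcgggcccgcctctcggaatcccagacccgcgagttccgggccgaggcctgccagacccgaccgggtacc

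The motifs were the CCAAT box (CCAAT), the GC box (GGGCGG), the ETS motif (CCGGAAG), the CRE (TGACGTCA), the TATA box (TATAAA) and the estrogen response element half-site (AGGTCA). No base in these windows belonged to 2 motifs. Among 32851 RefSeq start regions of the same length, 37.4% held a CCAAT box, 35.7% a GC box, 8.86% an ETS motif, 1.79% a CRE, 13.6% a TATA box and 16.3% a half-site. The Dgcr2 window held 2 CCAAT boxes and 4 GC boxes, the Ranbp1 window 1 and 3, the Cdc45 window 2 and 1 with a TATA box, and the Mrpl40 window 2 GC boxes. The half-site and the CRE were found in none of the 8 windows, and the ETS motif in that of Hira only. The 2 higher members did not share a base composition: the Ranbp1 window was 72.0% G and C with 42 CpG, and the Cdc45 window 38.7% with 11 CpG. The medians over all start regions were 52.7% and 7. Dgcr8, a higher gene of the stretch outside the 8, was near Ranbp1, with 74.3% and 43 CpG. The windows of the other higher genes of the stretch were not examined.

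Of the 8 genes, 6 reached 1 CPM in at least 1 library, and 5 of these were 2-fold or more apart, 2 higher and 3 lower with BPA. Mrpl40 and Hira reached 1 CPM only in the control library, which favours a lower call. Among the 4 members at 1 CPM or more in both libraries, 2 were higher and 1 was lower. The background over all genes is the 3.28% given above, but nothing can be read from the contrast since the same values chose the genes. The summed level of the 6 was 47.6 CPM in BPA testis and 51.5 CPM in control testis, a ratio of 0.923. Fewer cells of a type and less RNA per cell cannot be told apart in whole testis.

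**Figure D1:**
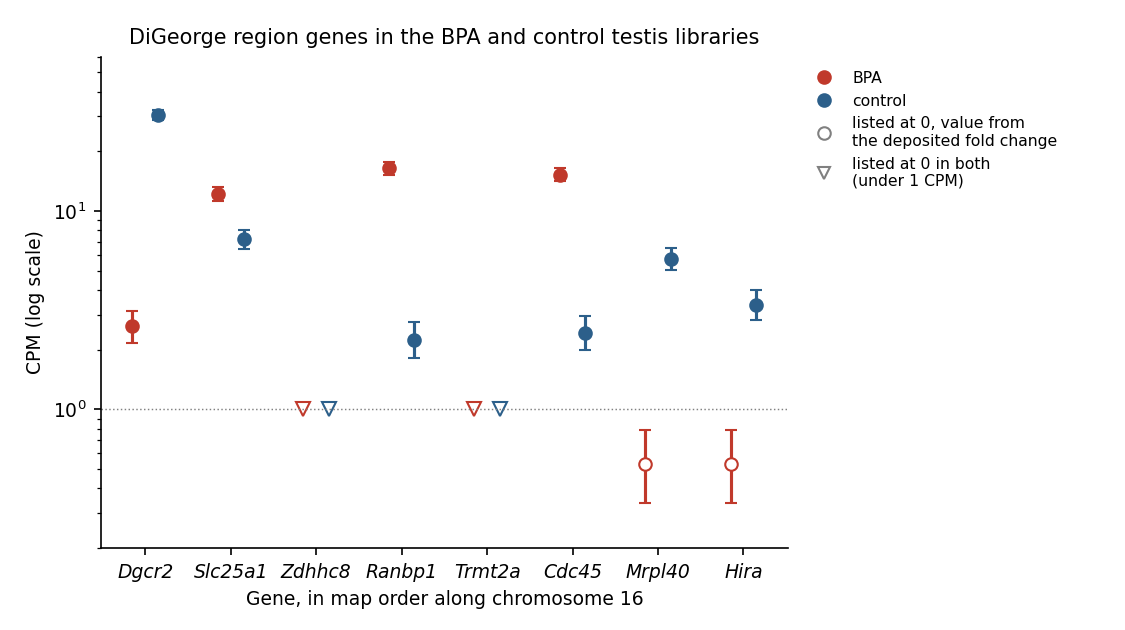
CPM of the 8 genes (log scale) in map order, BPA library in red to the left of the control library in blue, 1 library each; bars are exact 95% Poisson counting intervals, open circles are values recovered from the deposited fold change, and triangles at 1 CPM mark genes listed at 0 in both libraries. Ranbp1 and Cdc45 lie higher in the BPA library, and Dgcr2, Mrpl40 and Hira lower.

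Dgcr2 encodes a membrane protein with features of an adhesion receptor, and it opens the stretch (gene ID 13356, minus strand, 17840355 to 17891728 on chromosome 16). Its level was 2.62 CPM in the BPA library, on 119 reads, and 30.5 CPM in the control library, on 1275 reads. It was thus 11.6-fold lower (9.63 to 14.2), the largest difference of the 6 genes in log2 ratio (-3.49). In the authors' deposited table Dgcr2 has a log2 fold change of -3.54 and a q-value of 0.00029, and it is the only one of the 8 genes among the 28 that table marks. Of 5117 genes with a mean within 2-fold of that of Dgcr2, 64 (1.25%) stood 2-fold or more apart, a background from which nothing is read since Dgcr2 was chosen with its value known. On one side of Dgcr2, Car15, a carbonic anhydrase gene, was listed at 0 in both libraries. On the other side the difference did not extend to Tssk1: this testis-specific kinase gene had 5.38 CPM in BPA testis and 6.96 CPM in control testis.

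Past Dgcr2 came a run of genes within 2-fold. Tssk2, a second testis-specific kinase gene, had 6.55 CPM in BPA testis and 6.15 CPM in control testis, and Ess2, which encodes a nuclear protein, 8.62 and 6.77 CPM in the same order. Gsc2, a homeobox gene, was listed at 0 in both. Slc25a1 (13358, minus strand, 17925211 to 17928219) makes the carrier that takes citrate out of mitochondria for lipid synthesis. Its level was 12.2 CPM in BPA testis and 7.20 CPM in control testis, on 554 and 301 reads, 1.70-fold higher (1.47 to 1.96). That interval lies above equal levels and below 2-fold. Dgcr6 followed at 1.94 CPM in BPA testis and 1.96 CPM in control testis.

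Zdhhc8 (27801, minus strand, 18220748 to 18235153), a palmitoyltransferase gene, was under 1 CPM in both libraries. The authors' deposited table still gives it a log2 fold change of 3.47, an 11.1-fold ratio. At these depths only 12 reads in the BPA library to 1 in the control library, 24 to 2 or 36 to 3 give that value. With the largest of these the interval was 3.49 to 56.1, and the authors' deposited table has a q-value of 0.99996 for it. Its neighbour Ccdc188, a coiled-coil gene, had 1.06 CPM in BPA testis and 0.622 CPM in control testis, on 48 and 26 reads.

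Ranbp1 (19385, minus strand, 18239979 to 18248694) encodes a partner of the Ran GTPase that aids the release of export cargo from Ran in the cytoplasm. It stood at 16.4 CPM in the BPA library, on 746 reads, and 2.25 CPM in the control library, on 94 reads, 7.31-fold higher (5.89 to 9.16). The authors' deposited table gives Ranbp1 a log2 fold change of 2.87 with a p-value of 0.000515 and a q-value of 0.232. Trmt2a (15547, plus strand, 18248847 to 18254772 with an earlier start than the one used above), a tRNA uridine methyltransferase gene, starts on the far side of the same start region. It did not follow Ranbp1: Trmt2a was listed at 0 in both libraries, with a deposited ratio of 0.776, which 16 reads in the BPA library to 19 in the control library or 32 to 38 would give. With 32 to 38 the interval of the ratio was 0.469 to 1.28, which holds equal levels.

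Next along the map, Dgcr8, which works with Drosha to cut microRNA precursors, had 4.96 CPM in BPA testis and 0.239 CPM in control testis, on 225 and 10 reads. It was 20.7-fold higher (11.1 to 43.8). Exons of Trmt2a and Dgcr8 overlap over 825 bases on opposite strands. The deposited ratio of Trmt2a, on few reads, lay far below that of Dgcr8. The part of the overlap in either ratio was not tested. The next genes along the map to reach 1 CPM were Txnrd2 and Gnb1l. Txnrd2, the mitochondrial thioredoxin reductase gene, had 93 reads in the BPA library and 1 read in the control library. With that 1 control read the interval of its ratio ran from 15.0 to 3420. Gnb1l, a WD repeat gene, had 1.12 CPM in BPA testis and 0.455 CPM in control testis, 2.47-fold higher (1.43 to 4.43). Dgcr8, Txnrd2 and Gnb1l reached 1 CPM only in the BPA library, which favours a higher call. The authors' deposited table marks none of them. Between Dgcr8 and Txnrd2, Arvcf was under 1 CPM in both libraries, with a ratio of 0.395 in the authors' deposited table. Septin5, a filament-forming GTPase gene, followed at 12.8 CPM in BPA testis and 17.7 CPM in control testis.

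Cdc45 (12544, minus strand, 18780447 to 18811972) encodes a subunit of the helicase that unwinds DNA for replication. Its level was 15.2 CPM in the BPA library, on 692 reads, and 2.44 CPM in the control library, on 102 reads, 6.25-fold higher (5.07 to 7.77). The authors' deposited table gives a log2 fold change of 2.64, a p-value of 0.00135 and a q-value of 0.521 for Cdc45. On one side Cldn5, a tight junction gene of endothelium, was listed at 0 in both libraries. On the other side Ufd1, which helps the Vcp ATPase in protein degradation and starts beside Cdc45 on the opposite strand, had 21.2 CPM in BPA testis and 25.6 CPM in control testis. Its ratio of 0.830 (0.760 to 0.906) lay below 1 while that of Cdc45 lay far above.

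Mrpl40 (18100, minus strand, 18872018 to 18876637), a large subunit protein of the mitochondrial ribosome, and Hira (15260, plus strand, 18876750 to 18970309), a chaperone that deposits a histone H3 variant outside replication, close the stretch and are transcribed away from each other. Both were listed at 0 in the BPA library, and the deposited fold changes give 24 reads, 0.529 CPM, for each. In the control library Mrpl40 had 5.77 CPM on 241 reads and Hira 3.37 CPM on 141 reads. Mrpl40 was 10.9-fold lower in the BPA library (7.15 to 17.3) and Hira 6.38-fold lower (4.12 to 10.3). The authors' deposited table gives both a q-value of 0.99996, with p-values of 0.0258 for Mrpl40 and 0.131 for Hira. At the low level of Hira large ratios were more common, since 5.39% of 5362 genes with a mean within 2-fold of its own were 2-fold or more apart. On the other side of Mrpl40, 2510002D24Rik was listed at 0 in both libraries, with a deposited ratio of 1.38.

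**Figure D2:**
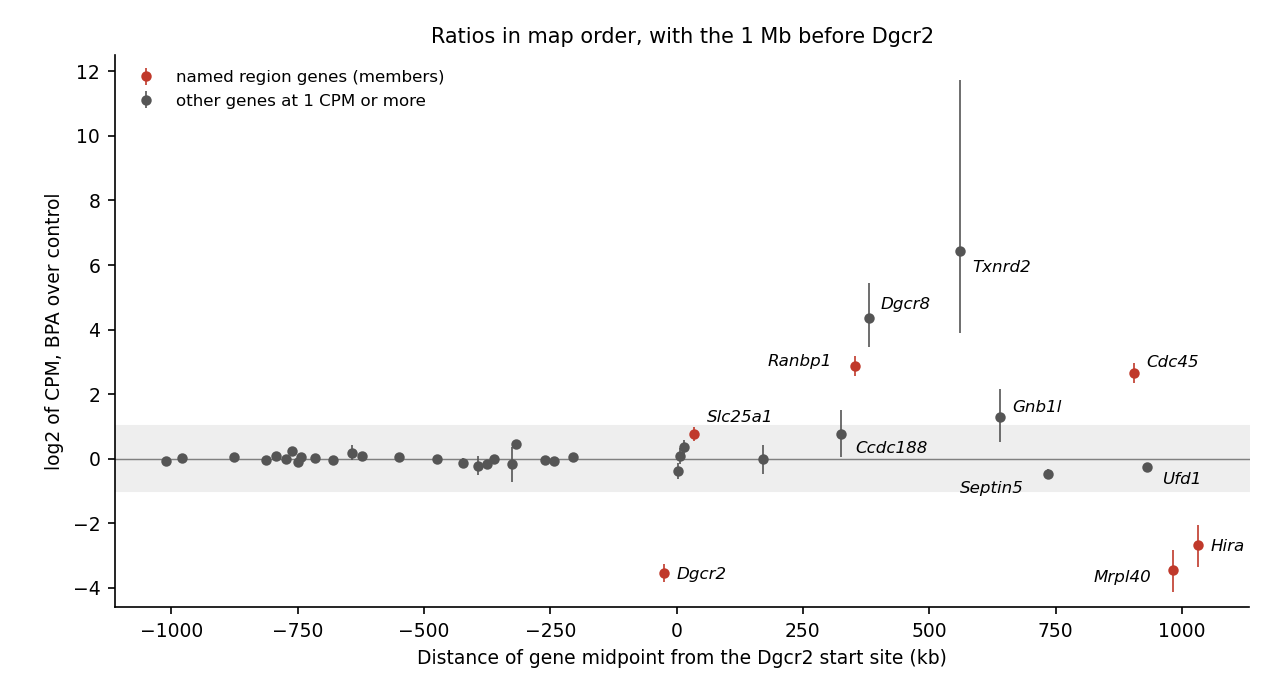
log2 ratio of CPM, BPA over control, for genes at 1 CPM or more by distance of the gene midpoint from the Dgcr2 start site in kb; bars are exact 95% counting intervals and the grey band marks less than 2-fold. The 24 genes in the 1 Mb before Dgcr2 lie in the band, and 8 of the 16 genes from Dgcr2 to Hira lie outside it. The summed level of the 24 was far above that of the 16.

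In the whole stretch from Dgcr2 to Hira, 1130 kb long, the deposited table has 42 genes. Of these 10 carry no value, 16 were listed at 0 in both libraries and 16 reached 1 CPM. Among the 16, 5 were higher and 3 lower, against 3.28% over all genes. Without the members, 3 of 10 were apart (Dgcr8, Txnrd2 and Gnb1l), and all 3 reached 1 CPM with BPA but not in control testis. Of the 10 genes at 1 CPM or more in both libraries, 3 were apart, all members: Dgcr2, Ranbp1 and Cdc45. The stretch was chosen with these values known, so nothing is read from its share. On the Dgcr2 side, all 24 genes at 1 CPM or more in the 1 Mb before Dgcr2, a window chosen after the values were seen, were within 2-fold, with log2 ratios from -0.21 to 0.45. Beyond Hira, in the next 1 Mb, which opens with the immunoglobulin lambda genes, no gene reached 1 CPM. Summed over the 16 genes, the stretch had 113 CPM in BPA testis and 118 CPM in control testis. The 24 genes before Dgcr2 summed to 3723 CPM in BPA testis and 3739 CPM in control testis. Since large ratios were more common at low levels, these 24 genes and the 16 are not compared at like levels.

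Of 15 pairs of consecutive genes at 1 CPM or more in the stretch, 4 had both genes 2-fold or more apart. These were Ranbp1 with Dgcr8, Dgcr8 with Txnrd2 and Txnrd2 with Gnb1l, all higher, and Mrpl40 with Hira, both lower. In 6 further pairs 1 gene was apart and the other was not. Over all chromosomes, 65 of 18079 pairs of consecutive genes at 1 CPM or more, 0.36%, had both genes apart. Of these 43 shared a direction and 22 went opposite ways. The stretch was chosen with its values known, so nothing is read from this contrast. Each of the 4 pairs holds a gene that reached 1 CPM in 1 library only, and members chosen for their values are in 2 of them, so the shared direction is a description. No pair of neighbours at 1 CPM or more in both libraries had both genes apart. The sum of Mrpl40 and Hira was 1.06 CPM in BPA testis and 9.14 CPM in control testis. That of Cdc45 and Ufd1, with their unlike ratios, was 36.5 CPM in BPA testis and 28.0 CPM in control testis.

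**Figure D3:**
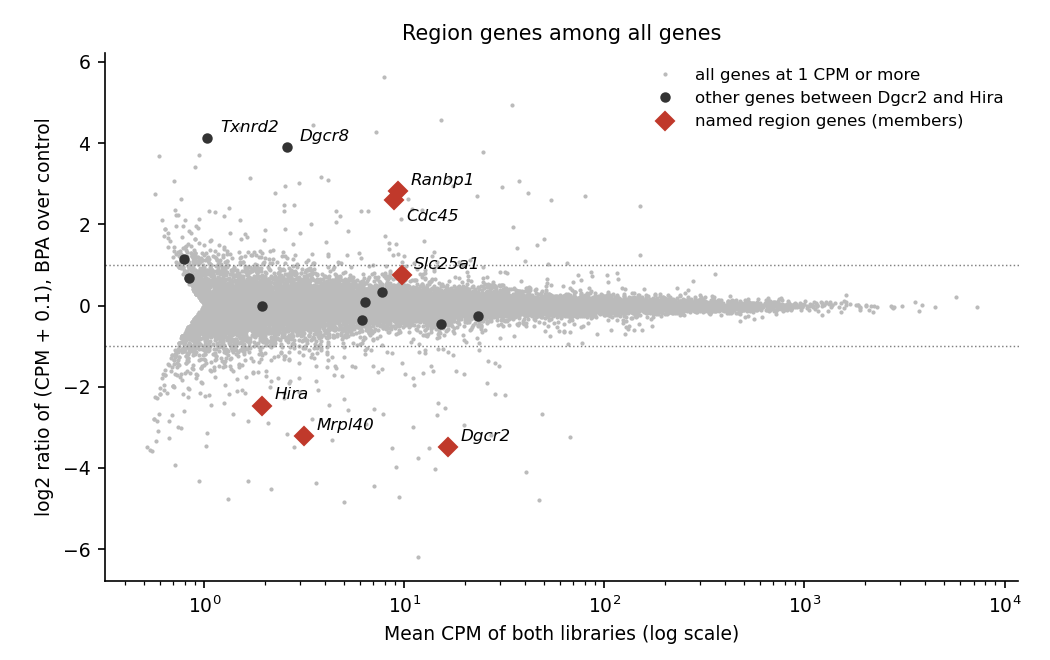
log2 ratio of CPM + 0.1, BPA over control, against the mean CPM of both libraries (log scale) for the 19389 genes at 1 CPM or more in grey, the other genes between Dgcr2 and Hira in black and the members as red diamonds; dotted lines mark 2-fold. The 5 called members lie beyond the dotted lines, and Slc25a1 lies between them.

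The larger list of mouse chromosome 16 genes that match human 22q11 extends beyond the stretch. Without the members, 3 of its 19 genes at 1 CPM or more were apart, the same Dgcr8, Txnrd2 and Gnb1l. The median log2 ratio of the 19 was -0.01, beside 0.00 over all genes. None of the genes of the list before Dgcr2 at 1 CPM or more was apart, and the widest ratio was that of the transporter gene Slc7a4, 1.37-fold higher at 27.1 CPM in BPA testis and 19.8 CPM in control testis. Crkl, an adaptor protein, had 19.1 CPM in BPA testis and 20.9 CPM in control testis, Med15, a Mediator subunit, had 94.4 and 91.8 CPM, and Smpd4, a sphingomyelinase, 135 and 139 CPM in the same order.

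The reading of some members is limited by overlapping exons in GENCODE. A strand setting, not given for these counts, could separate only genes on opposite strands. Exons of Dgcr2 share 26.5% of their bases with Gm20518, a gene on the same strand whose span also covers Car15. They share 0.919% with Tssk1 on the opposite strand. Those of Hira share 44.7% with Gm28539, on the same strand, whose span begins near that of 2510002D24Rik. Ranbp1 shares 16.9% with Gm49776, on the same strand, which reaches into Dgcr8, and 3.24% with Trmt2a on the opposite strand. Cdc45 shares 5.96% with Ufd1 on the opposite strand. Slc25a1, Zdhhc8 and Mrpl40 have no such overlap, and of these Mrpl40 was 2-fold or more apart. The levels of Gm20518, Gm28539 and Gm49776 were not analysed here. At most 1.31% of the 50-base words of any member occurred in GENCODE transcripts of genes away from this part of chromosome 16. Nearby genes and sequence outside annotated transcripts were not searched.

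Each member other than Dgcr2, which was given no pathway list, was then set beside the other genes of its own pathway or family. In all 7 lists the other genes at 1 CPM or more stayed within 2-fold. With 3.28% of all genes apart, a count of 0 is near the background for lists of this size, so it is no result about the pathways. For Cdc45, none of 14 genes of the replicative helicase and its loading was apart: the MCM ring gene Mcm2 had 17.6 CPM in BPA testis and 16.6 CPM in control testis, and Gins2 of the GINS complex had 18.4 and 17.2 CPM. Their median log2 ratio was 0.00 and the widest was that of Gins3 (0.55, 4.69 against 3.18 CPM). For Ranbp1, none of 9 genes of the Ran cycle was apart (median 0.03): Ran itself had 559 CPM in BPA testis and 570 CPM in control testis, and its exchange factor Rcc1 257 and 242 CPM.

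Among the partners of Hira none of 7 genes was apart (median -0.01), and its complex subunits Ubn1 and Cabin1 had 74.4 and 42.1 CPM in the BPA library and 75.1 and 46.8 CPM in the control library. The histone gene H3f3b, whose protein Hira deposits, had 580 CPM in BPA testis and 575 CPM in control testis. Among 48 other large subunit genes of the mitochondrial ribosome none was apart (median 0.07), and their log2 ratios ran from -0.32 for Mrpl34 to 0.33 for Mrpl33, far from the -3.22 of Mrpl40.

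For Slc25a1, none of 9 genes that make or use citrate was apart (median 0.05). The citrate lyase gene Acly had 87.6 CPM in BPA testis and 75.6 CPM in control testis, and Acaca, which starts fatty acid synthesis, 58.0 and 44.6 CPM. The 0.75 of Slc25a1 was above the highest of these, the 0.38 of Acaca. None of 21 other palmitoyltransferase genes was apart (median -0.01), nor any of 16 other Trmt genes (median -0.03), whose own members of the stretch were under 1 CPM. Of 5 mitochondrial genes of the stretch, Mrpl40 was lower, Txnrd2 higher and Slc25a1 within 2-fold, and Prodh and Tango2 were listed at 0 in both libraries.

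**Figure D4:**
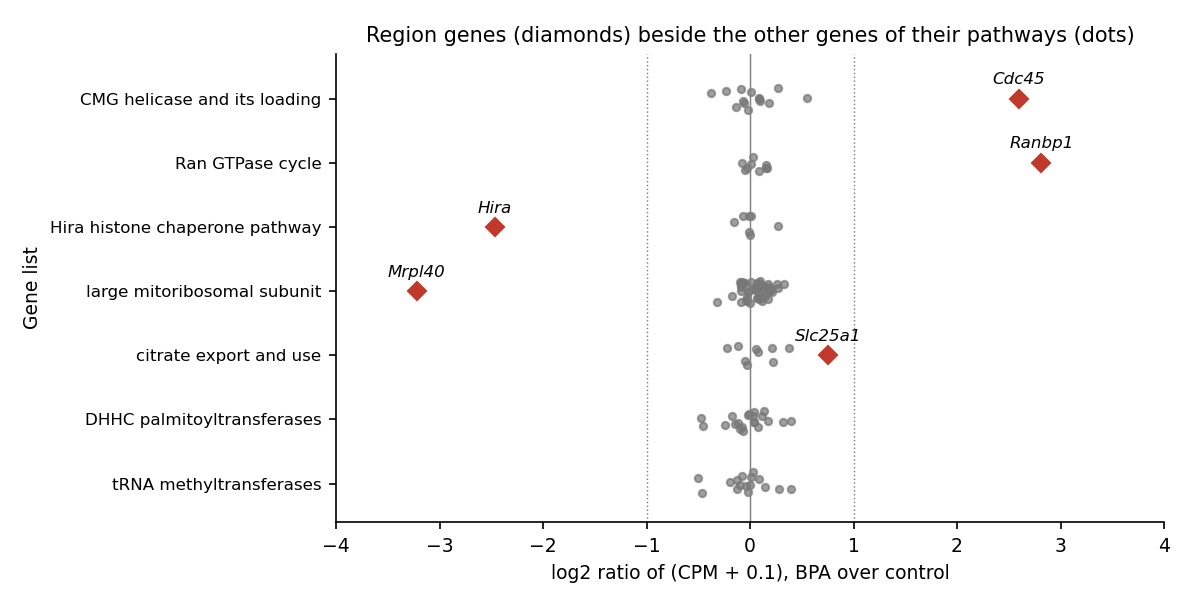
log2 ratio of CPM + 0.1, BPA over control, of the genes of 7 pathways (rows); red diamonds are the members at 1 CPM or more, grey dots the other genes of the list, spread vertically for display, and dotted lines mark 2-fold. The grey dots lie within 2-fold in every row, while 4 of the 5 diamonds lie outside.

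Outside the stretch, the genes closest to Dgcr2 in log2 ratio, among 4986 with a symbol and a mean within 2-fold of its own, were Fabp4 (-3.50), an adipocyte fatty acid carrier and one of the lower adipocyte markers, Mrps18b (-3.51), a small subunit protein of the mitochondrial ribosome, and Znrd1as (-3.77). This likeness rests on 1 ratio of 2 libraries.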

How the data were processed

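Poly(A) RNA of mouse testis was sequenced in 2 libraries, 1 per group. The submitters' processing notes name HISAT2 2.0.4, HTSeq 0.6.1 and build mm10; no source used here states the annotation, the strand setting or how p-values were made. The authors' deposited values are CPM, although headed as read counts, beside a log2 fold change (BPA over control), a p-value and a q-value. Every CPM value is a whole multiple of 1 step per library, 0.0220 CPM for BPA and 0.0239 CPM for control, taken as 1 read. Values written as 0 in 1 library were recovered from the deposited log2 fold change (812 in the BPA library, 592 in the control library), each within 0.00156 of a whole read. The fixed design had not foreseen such zeros. For genes at 0 in both, the whole reads that give the deposited fold change, to its last digit, were listed. No count model was fitted and no test was made between conditions.

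RefSeq positions (40269 of 41571 numeric IDs matched), GENCODE M21 exons and SciPy 1.17.1 were used. The call rule and intervals were tested on simulated Poisson reads. These hold counting error only, so the test says nothing about spread between samples. The members, the gene lists and the stretch were chosen with earlier results of these data known. Named genes are the members, their neighbours and overlapping genes, genes of the lists that were 2-fold apart, and the 3 genes nearest to Dgcr2; other list genes named as examples were chosen after their values were seen.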

Additional observations from a re-analysis of the deposited data

How the results depend on the processing

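With 1 library per group no library could be left out. No paired analysis was possible because each group has 1 library. The count of 5 members 2-fold or more apart stayed from 4 to 6 under both other scalings, a pseudocount of 1 CPM, a floor of 4 CPM, thresholds of 1.5-fold and 4-fold, 2-fold required of the nearer interval bound, no floor with the deposited fold changes, and listed zeros taken as 0, an alternative chosen after seeing the data. Limited to members with no exon overlap it was 1, because that leaves 2 members at the floor. The count of 8 genes in the stretch became 5 with a floor of 4 CPM, which leaves 11 genes tested, and lay from 7 to 10 under the other alternatives. The log2 ratios of 6 members kept their sign in all 18 alternatives. Neither a shared pseudocount nor scaling shifts of at most 0.0042 could reverse these signs, so nothing is read from that. The ratios moved beyond their counting interval in 5, all with the pseudocount of 1 CPM. There Hira gave -1.52 in place of -2.47 and Mrpl40 -2.15 in place of -3.22. Other scalings shifted all ratios by at most 0.0042 on the log2 scale. Depth limits the genes listed at 0 in both libraries. Most of those with a deposited fold change have reads known only as a ratio, and those without one have none recovered. For Klhl22 and 4933432I09Rik a single pair of whole reads gave the deposited fold change.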

Other observations

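Some genes listed at 0 in both libraries still carry a deposited fold change. Of 16 such genes in the stretch, 10 had one, and whole reads that give it exist for each. In the authors' deposited table these include 4 genes that were 2-fold or more higher, Zdhhc8 and the noncoding genes Gm41428 (5.53-fold), 4933432I09Rik (2.20-fold) and Gm35369 (2.07-fold), and 2 were lower. The adhesion gene Arvcf was lower, 2.53-fold by the authors' deposited table, on 3 reads in the BPA library to 7 in the control library up to 15 to 35, and Cldn5 was 3.26-fold lower, on 1 to 3 up to 13 to 39.

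In the 1 Mb before Dgcr2, 6 genes under 1 CPM in both libraries had a deposited fold change, 2 of them 2-fold or more higher and 2 lower. The counts of genes at 1 CPM or more leave these out. Nothing is read from these numbers either, since the share over all genes under 1 CPM was not counted. By the authors' deposited table the ubiquitin ligase adaptor gene Klhl22 was 8.11-fold higher, which only 44 reads with BPA to 5 in the control give (interval 3.22 to 26.2). The scavenger receptor gene Scarf2 was 3.38-fold higher, on 11 to 3 up to 44 to 12 reads in the same order. By the authors' deposited table the serpin gene Serpind1 was 2.99-fold lower (4 to 11 up to 12 to 33 reads, BPA to control), and the pseudogene Bod1-ps 3.08-fold lower (6 to 17 up to 12 to 34). These 4 genes, and the 3 noncoding genes of the stretch, were named after their values were seen.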
